A study of Homo sapiens with 4 samples.

Results

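The BCL2 family genes described here are 10 genes of the mitochondrial pathway of apoptosis, taken by symbol from the gene table, which holds 16834 genes, and from the transcript table, which holds 70268 transcripts. All 10 were present in both tables. They are 3 pro-survival genes (BCL2, BCL2L1 and MCL1), 5 BH3-only genes (BCL2L11, BMF, BBC3, PMAIP1 and BID) and 2 effector genes (BAX and BAK1). The study treated cells labelled MIA PaCa-2, an established line from a human pancreatic ductal adenocarcinoma (PDAC), with NBT (neobractatin, a natural compound isolated from Garcinia bracteata), with trametinib, which inhibits the kinases MEK1 and MEK2 of the MAPK pathway, or with both, to examine how the drugs act together. The control library came from cells given neither drug, the NBT library from cells given 1 µM NBT, the trametinib library from cells given 5 µM trametinib, and the combination library from cells given both at these doses. Treatment lasted 12 h, the genotype label is WT in every condition, and each condition was sequenced as 1 library. No difference below therefore has a replicate check, no p-value is given, and variation between cultures is part of every difference between libraries. The intervals are 95% intervals for counting error only. Reads copied by PCR are not independent molecules, so the intervals may be too narrow even for that error.

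Proteins of this family decide whether the outer mitochondrial membrane stays intact. BAX and BAK1 (BAK) form the pores through which cytochrome c leaves the mitochondrion, after which APAF1 and caspase-9 start the caspase cascade. BCL2, BCL2L1 (BCL-XL) and MCL1 hold BAX, BAK and BH3-only proteins in check, whereas the BH3-only proteins BCL2L11 (BIM), BMF, BBC3 (PUMA), PMAIP1 (NOXA) and BID bind the pro-survival proteins, and some of them also activate BAX and BAK directly. In carcinoma cells driven by the MAPK pathway, ERK signaling is known to promote the degradation of BIM and to stabilise MCL1, which RNA levels do not show. The family works largely at the protein level, through binding, cleavage and degradation, and only RNA was measured here.

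The libraries had estimated count sums between 18776212 and 19614763, at which 3 counts correspond to between 0.153 and 0.160 CPM (counts scaled by the library sum to a common total). Markers were checked before the members. Of the 8 genes listed for the carcinoma line, KRT19 was not in the table. The 7 that were in it were above 1 TPM (a level corrected for transcript length and library size) in each library. KRT8 had 26811 to 63594 counts. Some of the listed genes went against what is known of MIA PaCa-2, in which CDKN2A is deleted and vimentin is high. CDKN2A had 2643 to 3524 counts, CDH1 (E-cadherin) 2539 to 4086 counts and VIM (vimentin) 202 to 500 counts. CDKN2B and MTAP, neighbours of CDKN2A at 9p21, were checked in addition and had 71 to 426 and 815 to 1151 counts. The cell line entries of the labels also name a different MIA PaCa number for each library. The libraries are therefore called by their treatment below, and their origin was not tested beyond these genes and labels. Summed TPM of the leukocyte markers was at most 4.98 (2 of 3 in the table), that of the endothelial markers at most 0.64 (2 of 2), of the fibroblast markers at most 1.69 (2 of 3) and of the acinar markers at most 0.08 (1 of 3), and neither islet marker was in the table. The leukocyte marker CD3E had 0 counts in the control and NBT libraries, 55 with trametinib and 29 with both drugs, and its part in the results was not tested. The 8 genes listed to check MEK inhibition, among them DUSP6 with 329, 521, 14 and 9 counts in the control, NBT, trametinib and combination libraries, were all at least 2-fold lower in both libraries with trametinib than in the control library.

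The feature that all members share is the BH3 helix, the short stretch by which BH3-only proteins dock into the groove of the pro-survival proteins. It is recognised by a core of a leucine, 3 further residues, a glycine or alanine, and an aspartate. Searching the principal coding sequence of each member in GENCODE 29 (GRCh38) found exactly 1 such core per gene. The 42 coding bases around it are shown for all members because the results on transcripts below turn on whether a transcript holds this stretch. Capitals mark the codon of the leucine and the codons of the glycine or alanine and the aspartate, and each sequence reads from 5′ to 3′ on the coding strand.
BCL2: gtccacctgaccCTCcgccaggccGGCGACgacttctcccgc
BCL2L1: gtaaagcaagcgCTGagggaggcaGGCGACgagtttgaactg
MCL1: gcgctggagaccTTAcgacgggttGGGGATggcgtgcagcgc
BCL2L11: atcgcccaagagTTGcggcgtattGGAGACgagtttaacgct
BMF: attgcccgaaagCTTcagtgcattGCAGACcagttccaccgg
BBC3: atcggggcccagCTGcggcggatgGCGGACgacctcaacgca
PMAIP1: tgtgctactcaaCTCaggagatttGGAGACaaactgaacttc
BID: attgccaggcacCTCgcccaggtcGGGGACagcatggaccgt
BAX: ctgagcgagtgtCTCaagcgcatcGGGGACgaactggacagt
BAK1: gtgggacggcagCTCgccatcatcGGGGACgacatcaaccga

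Each stretch lies within a single coding exon. The positions are BCL2 at chr18:63318349-63318390 (minus strand, exon 2 of 3), BCL2L1 at chr20:31721922-31721963 (minus strand, exon 2 of 3), MCL1 at chr1:150578865-150578906 (minus strand, exon 1 of 3), BCL2L11 at chr2:111150091-111150132 (plus strand, exon 4 of 5), BMF at chr15:40104195-40104236 (minus strand, exon 4 of 5), BBC3 at chr19:47226579-47226620 (minus strand, exon 3 of 4), PMAIP1 at chr18:59902661-59902702 (plus strand, exon 2 of 2), BID at chr22:17739415-17739456 (minus strand, exon 4 of 6), BAX at chr19:48955775-48955816 (plus strand, exon 3 of 6), BAK1 at chr6:33575387-33575428 (minus strand, exon 4 of 6). Over the 45 pairs of members, between 13 and 27 of the 42 bases were identical, with a median of 19. The pairs with 27 identical bases were BCL2L11 with BMF, BCL2L11 with BBC3, and BID with BAK1, and those with 13 were PMAIP1 with BCL2 and with MCL1. Estimated counts were whole for 8 of the members and fractional for BCL2L11 and BAX, some of whose reads RSEM divided with other loci. Over all 16834 genes, 53.9% had a fractional count in 1 or more of the libraries.

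Among the pro-survival genes, BCL2L1 and BCL2 were lower wherever trametinib was present, and MCL1 was lowest with trametinib alone. BCL2L1, on chromosome 20, had 2982 counts under control conditions, 3802 with NBT, 1311 with trametinib and 1411 with both drugs, or 159, 196, 69.2 and 71.9 CPM. The trametinib and combination libraries were the low ones, and they differed from each other by less than counting error. Against control the log2 ratio was 0.30 (0.23 to 0.37) for NBT, -1.20 (-1.29 to -1.10) for trametinib and -1.14 (-1.23 to -1.05) for the combination. The combination was 2.72-fold lower than NBT alone, the largest difference between the combination and a single drug among the pro-survival genes.

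MCL1, a pro-survival gene on chromosome 1 with a short-lived RNA and protein, was the most abundant member by counts. It had 5732 counts in the control, 7651 under NBT, 3429 under trametinib and 5011 under the combination, or 305, 394, 181 and 255 CPM. NBT was highest, trametinib lowest, and the libraries of each of the 5 comparisons differed by more than counting error. The log2 ratio to control was 0.37 (0.32 to 0.42) for NBT, -0.75 (-0.82 to -0.69) for trametinib and -0.26 (-0.31 to -0.20) for the combination. Between the 2 libraries that held trametinib, the one that also held NBT was higher by a log2 ratio of 0.50 (0.43 to 0.56), or 1.41-fold.

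BCL2, the founding member of the family, on chromosome 18, was rare in these libraries, with 121 counts without drug, 124 with NBT alone, 59 with trametinib alone and 61 with both. The libraries with trametinib were again the low ones. The log2 ratio to control was -1.04 with trametinib (-1.52 to -0.59) and -1.05 with the combination (-1.52 to -0.60), so the values lie just past the 2-fold limit while the intervals reach well inside it. Against NBT alone the combination was at -1.03. With 5 reads added in place of 0.5, BCL2 was no longer past this limit in any of these comparisons, at -0.99, -0.996 and -0.98. With NBT alone it was -0.01 (-0.39 to 0.36).

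**Figure D1:**
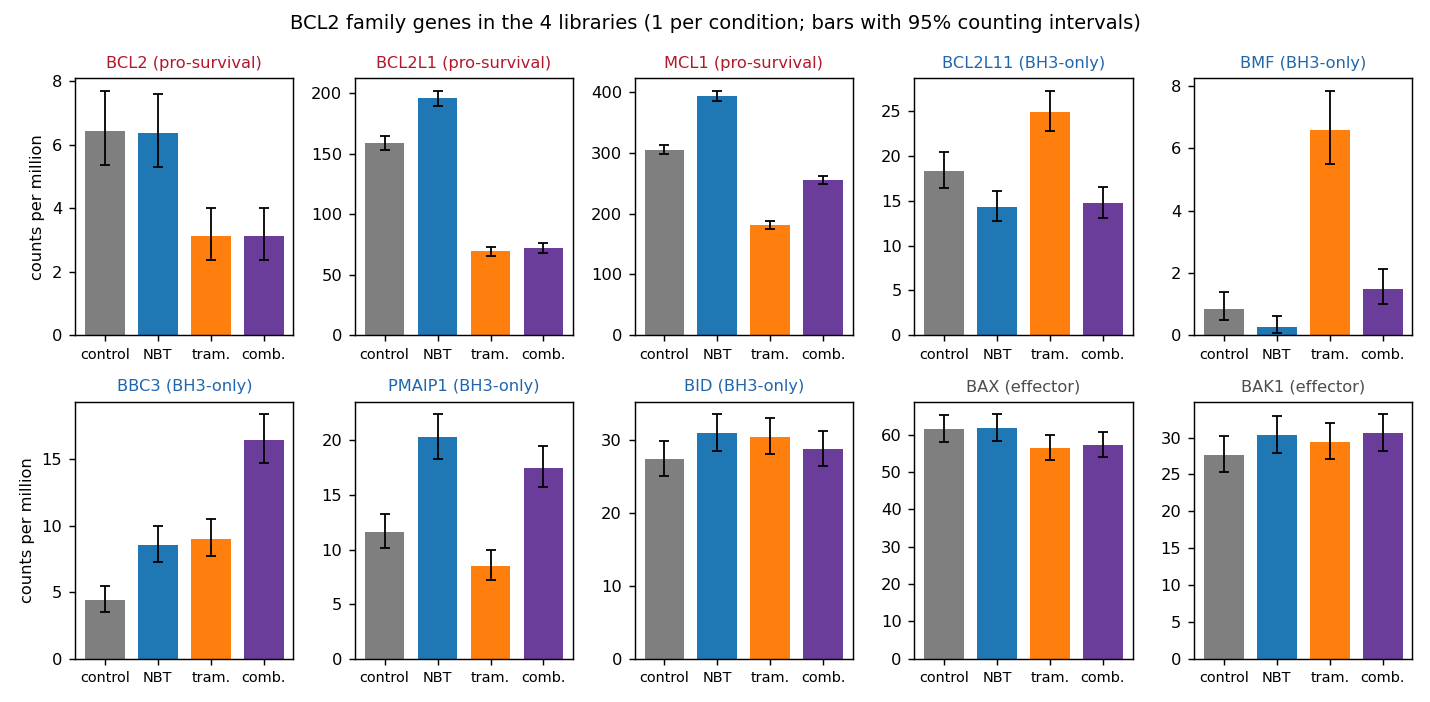
CPM of the 10 members in the control, NBT, trametinib (tram.) and combination (comb.) libraries, 1 library per condition, with bars for the value and lines for its 95% counting interval; each panel has its own vertical axis from 0. BCL2 and BCL2L1 are low in both libraries with trametinib, BBC3 is highest in the combination library, PMAIP1 is high in both libraries with NBT, and BMF is high in the trametinib library, while BID, BAX and BAK1 are nearly level.

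The BH3-only genes did not move as a block, and each of BBC3, PMAIP1, BMF and BCL2L11 had its own order of the libraries. BBC3, on chromosome 19, encodes PUMA, which binds all of the main pro-survival proteins. It had 83 counts under control conditions, 166 with NBT, 171 with trametinib and 323 with both drugs, or 4.42, 8.54, 9.02 and 16.5 CPM. Each single drug was higher than the control and the combination was higher than either. The log2 ratio to control was 0.95 (0.56 to 1.35) for NBT, 1.03 (0.64 to 1.43) for trametinib and 1.89 (1.55 to 2.26) for the combination, the last being 3.71-fold. Adding the second drug gave a log2 ratio of 0.87 (0.60 to 1.14) over trametinib alone and 0.95 (0.67 to 1.23) over NBT alone.

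PMAIP1, on chromosome 18, encodes NOXA, which binds MCL1 in preference to the other pro-survival proteins. It had 218 counts in the control, 394 under NBT, 161 under trametinib and 343 under the combination. Both libraries with NBT were above both libraries without it. The log2 ratio to control was 0.80 (0.56 to 1.05) for NBT, -0.45 (-0.75 to -0.15) for trametinib and 0.59 (0.34 to 0.84) for the combination, and the combination was 2.05-fold above trametinib alone.

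BMF, on chromosome 15, encodes a BH3-only protein that is held at the cytoskeleton in unstressed cells. It was the rarest member in the control library, with 16 counts, and had 5 under NBT, 125 under trametinib and 29 under the combination, or 0.852, 0.257, 6.60 and 1.48 CPM. The trametinib library stood above the rest, and the combination library was below it. The log2 ratio to control was 2.91 (2.197 to 3.80) with trametinib, 0.78 (-0.13 to 1.77) with the combination and -1.63 (-3.53 to -0.21) with NBT, the last resting on very few counts. With FPKM in place of counts the NBT value was -0.91, which is inside the 2-fold limit, and an exact binomial comparison of the libraries, adjusted over the genes tested, did not call it. The combination was 4.40-fold lower than trametinib alone, with a log2 ratio of -2.14 (-2.79 to -1.57).

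BCL2L11, on chromosome 2, encodes BIM, which binds all of the main pro-survival proteins and can activate BAX and BAK. It had 345 counts without drug, 279 with NBT alone, 473 with trametinib alone and 289 with both. Trametinib alone was highest, and both libraries with NBT were below the control. The log2 ratio to control was -0.36 (-0.59 to -0.12) for NBT, 0.44 (0.24 to 0.65) for trametinib and -0.32 (-0.55 to -0.09) for the combination, and that of the combination to trametinib was -0.76 (-0.98 to -0.55). BID, on chromosome 22, whose protein is cleaved by caspase-8 to link death receptors to mitochondria, had 512, 600, 576 and 562 counts in the control, NBT, trametinib and combination libraries. These libraries were close to each other, and among the 5 comparisons the interval of the ratio excluded 0 only for NBT against control, at a log2 ratio of 0.18 (0.01 to 0.35).

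The effectors were the most even members. BAX, on chromosome 19, had 1156, 1202, 1070 and 1124 counts in the control, NBT, trametinib and combination libraries, and its largest absolute log2 ratio to control was -0.12 (-0.25 to -0.0036), with trametinib. BAK1, on chromosome 6, had 520, 590, 558 and 600 counts in the same order. Its log2 ratio to control was 0.13 (-0.04 to 0.31) for NBT, 0.09 (-0.09 to 0.26) for trametinib and 0.14 (-0.03 to 0.32) for the combination. The upper end of these intervals leaves room for a difference of at most 1.24-fold from counting error.

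**Figure D2:**
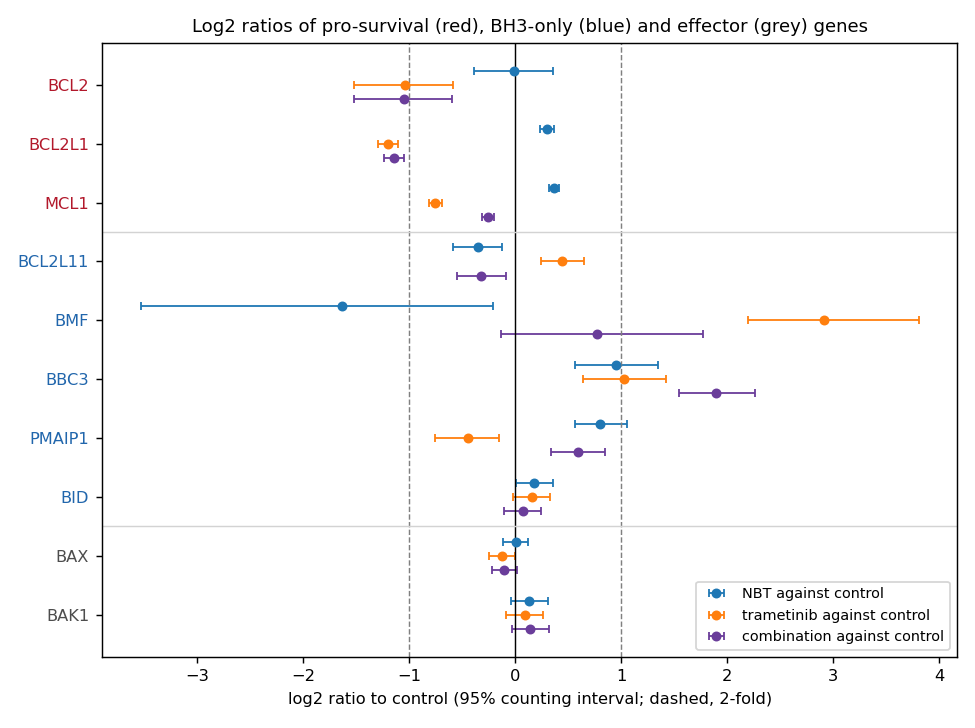
Log2 ratio to the control library of each member in the NBT, trametinib and combination libraries (points) with its 95% counting interval (lines), where dashed lines mark 2-fold. Points of BCL2 and BCL2L1 for both treatments that include trametinib lie past the left dashed line, as does BMF with NBT at -1.63. Past the right one lie BBC3 with the combination at 1.89 and with trametinib at 1.03, and BMF with trametinib at 2.91.

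The members were set beside the 13509 genes that reached 10 counts in 1 or more of the libraries, as all 10 members did. With NBT against control, 0 members were at least 2-fold higher, beside 2.99% of the genes, and 1, BMF, was at least 2-fold lower, beside 2.15%. With trametinib against control, BMF and BBC3 were at least 2-fold higher (2 of 10 members, beside 5.84% of the genes) and BCL2 and BCL2L1 at least 2-fold lower (2 of 10, beside 3.07%). BBC3 lay so close to this limit that other library scalings, TPM, FPKM or more added reads put it below. With the combination against control, BBC3 was at least 2-fold higher (1 of 10, beside 6.74%) and BCL2 and BCL2L1 at least 2-fold lower (2 of 10, beside 5.16%). These comparisons share the control library.

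The combination was also compared with each single drug. Against trametinib, PMAIP1 was at least 2-fold higher (1 of 10 members, beside 3.82% of the genes) and BMF at least 2-fold lower (1 of 10, beside 5.4%). Against NBT, BMF was at least 2-fold higher (1 of 10, beside 4.04%) and BCL2 and BCL2L1 at least 2-fold lower (2 of 10, beside 3.09%). With so few members, a share of 1 or 2 in 10 cannot be set apart from these backgrounds.

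The counting interval of the ratio excluded 0 for many genes of the libraries and, depending on the comparison, for 5 to 8 of the 10 members. For NBT against control it did so for 7 of 10 members and for 48.1% of the genes, for trametinib against control for 8 of 10 and 56.4%, and for the combination against control for 6 of 10 and 63.2%. For the combination against trametinib it did so for 5 of 10 and 59.5%, and against NBT for 6 of 10 and 50.9%. The median log2 ratio of the members was 0.16 for NBT, -0.02 for trametinib and -0.02 for the combination, beside -0.0025, 0.08 and 0.04 over all genes tested. By role, the median of the pro-survival genes was 0.30, -1.04 and -1.05 in these comparisons, that of the BH3-only genes 0.18, 0.44 and 0.59, and that of the effectors 0.07, -0.02 and 0.02.

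**Figure D3:**
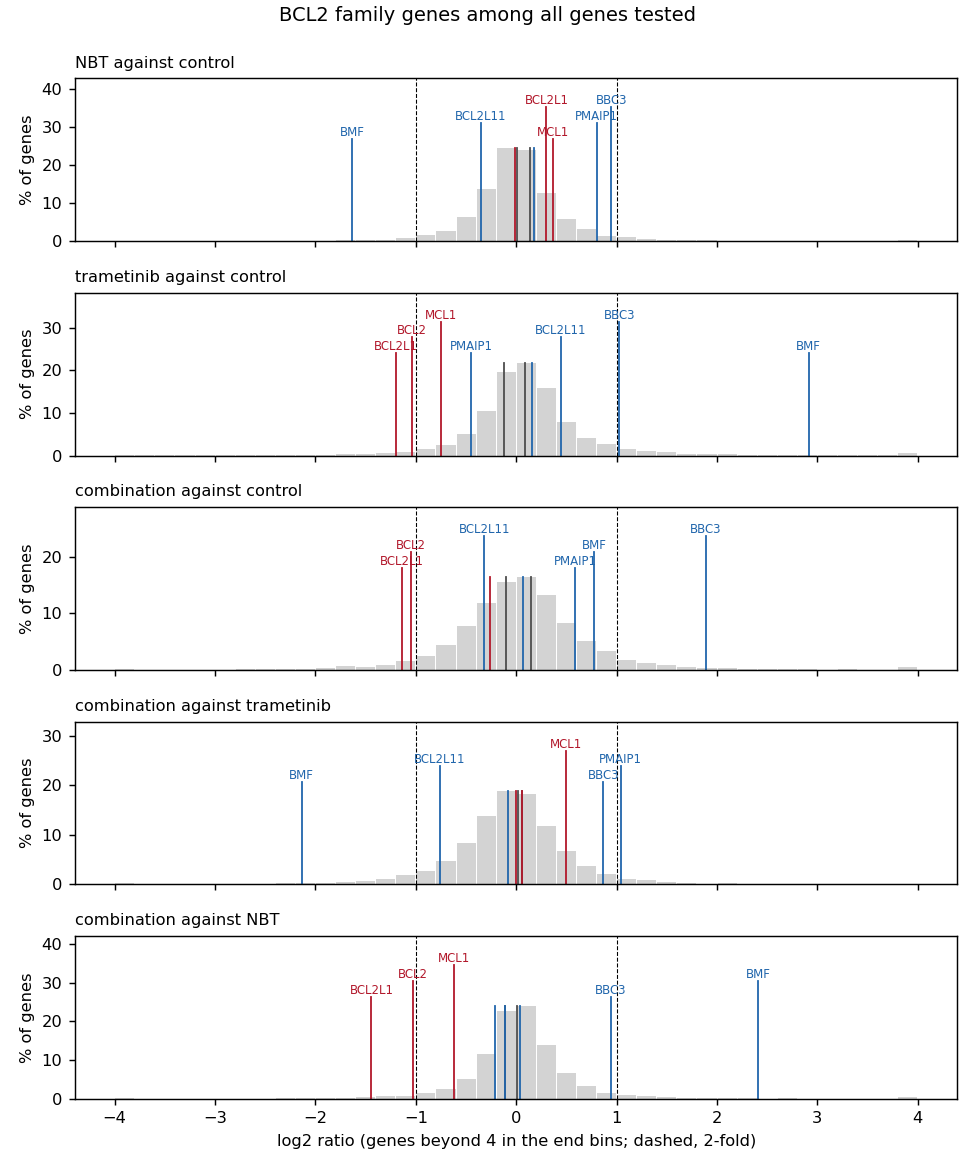
Percent of the 13509 genes tested in each bin of log2 ratio (grey bars) for the 5 comparisons, with the members as vertical lines (red, pro-survival; blue, BH3-only; grey, effectors; members within 0.3 of 0 are not named) and dashed lines at 2-fold. Most members sit within the bulk of genes, and BMF with trametinib, at 2.91, is the one farthest from 0.

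Whether the combination acted on the members as the sum of the single drugs was described by the departure, the log2 ratio of the combination to control minus the sum of the log2 ratios of NBT and of trametinib. No member departed by 1 or more, beside 6.85% of the genes tested. BBC3 had a sum of 1.97 and a combination value of 1.89, a departure of -0.08 (-0.54 to 0.38). BCL2L1 departed by -0.24 (-0.37 to -0.12), as its log2 ratio for adding NBT was 0.30 without trametinib and 0.06 (-0.05 to 0.17) with it. MCL1 departed by 0.13 (0.05 to 0.21), BCL2L11 by -0.40 (-0.71 to -0.09) and BID by -0.26 (-0.50 to -0.03), and these were, with BCL2L1, the 4 of 10 members whose interval excluded 0, beside 37.3% of the genes tested. PMAIP1 departed by 0.24 (-0.12 to 0.60) and BMF by -0.50 (-2.07 to 1.06), where the width comes from the few counts of BMF without trametinib.

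**Figure D4:**
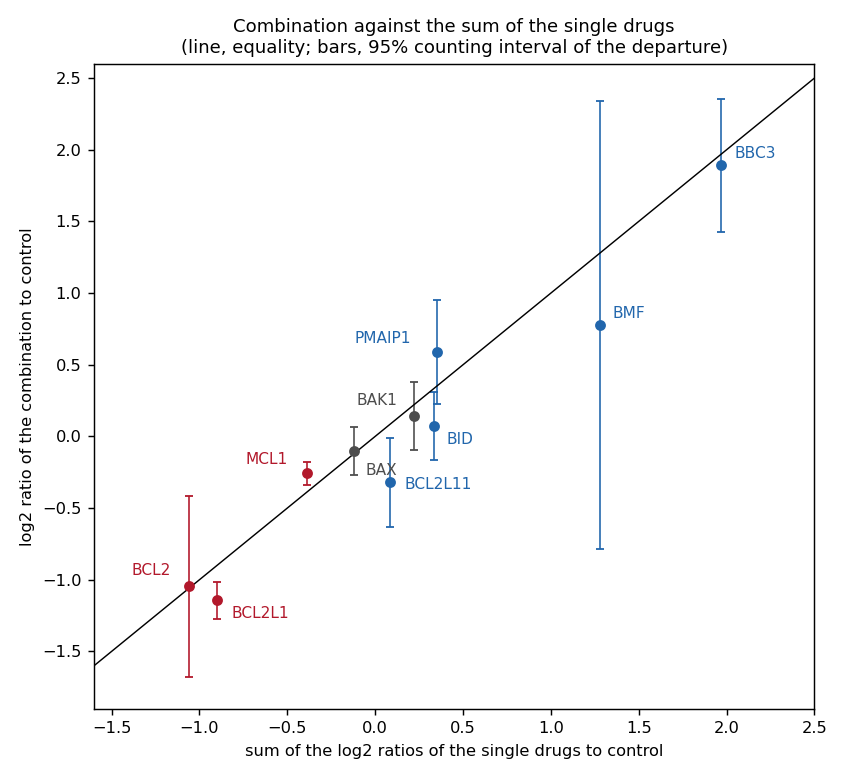
Log2 ratio of the combination to control (vertical axis) against the sum of the log2 ratios of the single drugs (horizontal axis) for the 10 members, with the line of equality and the 95% counting interval of the departure. All members lie within 1 of the line, and the 2 farthest below it are BMF at -0.50 and BCL2L11 at -0.40.

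Levels of different genes were compared on the TPM scale, which is per length. In the control library the order was MCL1 at 152 TPM, BCL2L1 at 127, BAX at 119, BAK1 at 25.4, BID at 25.1, PMAIP1 at 12.2, BCL2L11 at 11.8, BBC3 at 5.04, BCL2 at 3.95 and BMF at 0.38 TPM. BAK1 and BID, PMAIP1 and BCL2L11, and BBC3 and BCL2 did not differ beyond counting error in this order, and the other neighbours did. BCL2L1 and BAX did so only barely, at a log2 ratio of 0.10 (0.0004 to 0.196). These intervals leave out the error of dividing reads between transcripts of different length, so the order of BCL2L1 and BAX is uncertain. The order shifted with treatment. In the trametinib library BAX led at 112 TPM, above MCL1 at 88.9 and BCL2L1 at 54.2 TPM, and BCL2 was last at 1.37 TPM, below BMF at 2.79 TPM. In the combination library MCL1 led again at 124 TPM, followed by BAX at 106 and BCL2L1 at 56.2 TPM, and BBC3 at 18.7 TPM and PMAIP1 at 17.9 TPM stood above BCL2L11 at 8.21 TPM without differing from each other beyond counting error. In the NBT library the 3 highest were MCL1 at 188 TPM, BCL2L1 at 150 and BAX at 113 TPM.

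The summed TPM of the pro-survival genes was 284 under control conditions, 341 with NBT, 144 with trametinib and 182 with both drugs. The BH3-only sum was 54.5, 64.6, 63.2 and 71.2 TPM, and the effector sum 144, 140, 138 and 133 TPM, in the same order. The pro-survival sum thus differed most between libraries, and the effector sum least. The ratio of the pro-survival to the BH3-only sum was 5.20 in the control library, 5.29 under NBT, 2.28 under trametinib and 2.56 under both. These sums cover the 10 members only. BAD, a BH3-only gene outside them, had 118, 86.1, 152 and 93.1 TPM in the same order, more than the BH3-only sum in each library. BCL2L2 and BOK, also outside them, had 27.5 to 29.2 and 46.0 to 76.1 TPM. The sums and their ratio thus depend on which genes are counted. The TPM ratio of BCL2L1 to BBC3 was 25.3, 16.5, 5.46 and 3.01 in these libraries, and that of MCL1 to PMAIP1, a pair known to bind each other, was 12.5, 9.22, 10.1 and 6.93. Ratios of RNA levels are not ratios of proteins.

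**Figure D5:**
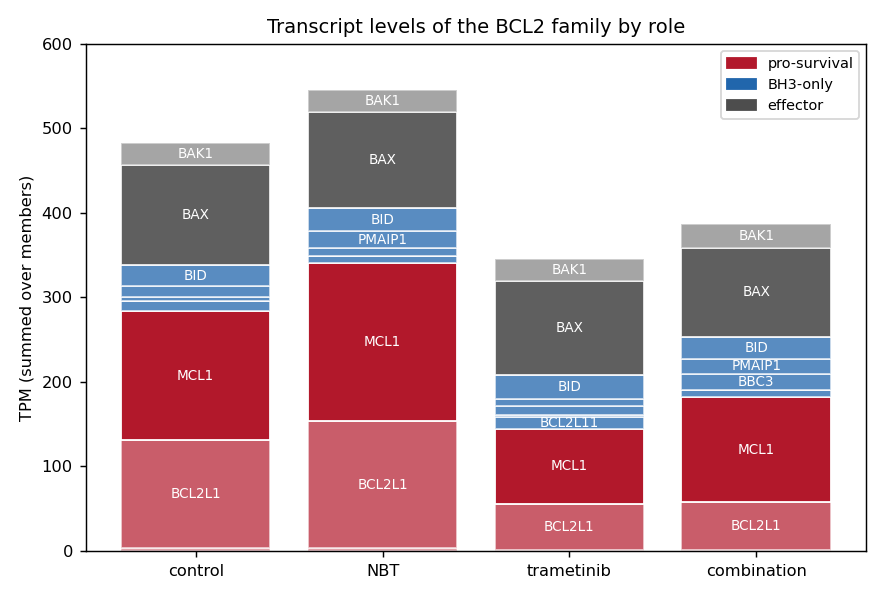
TPM of the members stacked by role in each library (red, pro-survival; blue, BH3-only; grey, effectors), 1 library per condition; members below 14 TPM are drawn without a name. The red part is 284 TPM in the control library and 144 TPM in the trametinib library, and the grey part lies between 133 and 144 TPM.

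The transcript table divides each gene between its RefSeq transcripts, which were matched to GENCODE 29 to ask which of them encode the BH3 stretch shown above. These shares are RSEM estimates for transcripts that overlap, so they carry no interval, and a transcript listed at 0 can be a failed estimate. BBC3 transcripts that encode the stretch summed to 2.34 TPM in the control library, 6.40 under NBT, 8.52 under trametinib and 15.3 under both, or 46.4%, 70.4%, 85.8% and 81.8% of the gene. The control library thus had the lowest share. Transcripts that could not be matched took 18.1%, 7.37%, 14.2% and 2.99% of the gene in the same order. The transcript of 193 codons, the usual PUMA form, took 1.86, 5.91, 7.25 and 10.3 TPM of this, and the shorter form of 131 codons took 0.48, 0.49, 1.27 and 5.04 TPM. For BMF, transcripts with the stretch were listed at 0 in the control and NBT libraries, at 1.25 TPM with trametinib and at 0.22 TPM with the combination, at counts too low to rank the first pair.

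BCL2L1 is known for a long pro-survival form, BCL-XL, and a short form, BCL-XS, that opposes it. The short transcript, of 170 codons beside 233, keeps the BH3 stretch and was estimated at 10.8 TPM in the control library, 20.9 under NBT, 0 under trametinib and 2.55 under both, or 8.48%, 13.9%, 0% and 4.53% of the gene. It was thus low in the 2 libraries in which the whole gene was low. MCL1 came almost wholly from the full-length transcript of 350 codons, at 99.0%, 98.6%, 96.5% and 97.6% of its TPM, and the short form of 271 codons stayed between 1.47 and 2.98 TPM. BID transcripts with the stretch made up 79.3%, 84.9%, 65.2% and 74.8% of the gene, and those of BAX 67.6%, 66.5%, 64.0% and 77.3%. For BCL2L11 the share was 25.8%, 29.9%, 31.7% and 32.3%, with between 11.6% and 27% of the gene in transcripts that could not be matched. From estimated counts in place of TPM, which are not per length, the BCL2L11 shares were 43.0%, 43.0%, 47.2% and 48.0%, so the gap between control and NBT was absent. PMAIP1 has 1 transcript in the table, which encodes the stretch.

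The bases before the start site are shown for PMAIP1 as an example. By more than counting error, this BH3-only gene was higher with NBT than in control and higher in the combination than with trametinib alone. The same held for BBC3, at log2 ratios of 0.95 (0.56 to 1.35) and 0.87 (0.60 to 1.14). The RefSeq start sites used here (GRCh38.p14) hold none for MCL1, which was not searched. For the other 9 members they give 15 start sites. The 250 bases before each were searched on both strands for 6 motifs of factors that are known to act on apoptosis or stress genes. The stretch shown is chr18:59899746-59899947 (plus strand, 202 bases), which ends before the first exon of PMAIP1 in GENCODE 29, and capitals mark the match.
PMAIP1: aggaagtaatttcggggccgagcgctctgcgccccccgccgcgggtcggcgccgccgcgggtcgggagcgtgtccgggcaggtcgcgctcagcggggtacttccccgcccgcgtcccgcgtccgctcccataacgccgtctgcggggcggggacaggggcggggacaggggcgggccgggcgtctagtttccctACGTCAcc

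PMAIP1 held the cyclic AMP response element core TGACGT on the reverse strand at position -56 from the start. This motif was found in 7.1% of 35116 promoters of this length and in no other member searched. BBC3 held an E-box (CACGTG) at -232 and an AP-1 motif (TGANTCA) at -113. The BBC3 start site used here lies inside the gene as RefSeq annotates it, so 193 of its 250 bases are within the gene. The E-box was found in 6.34% of all promoters and also before BAX, at 4 positions, and before 2 start sites of BID, which overlap. All 250 bases before each of these BID start sites lie within the BID gene. The AP-1 motif was found in 6.57% of promoters and in no other member searched. BCL2L11 held the forkhead motif GTAAACA at -223, found in 2.98%. The ETS motif CCGGAAGT, in 3.42% of promoters, and the ATF4 composite motif TGATGNAA, in 3.14%, were found before none of the members searched. For BCL2, all 250 bases searched lie within the BCL2 gene. A match describes these letters only, and binding was not measured.

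Genes around the members were described from 3 lists. Of 14 further BCL2 family genes, 13 were in the table and 12 had enough counts. In that list 1 gene was at least 2-fold higher and 0 lower with NBT against control, beside 2.99% and 2.15% of the genes tested. With trametinib 1 was higher and 0 lower, beside 5.84% and 3.07%. With the combination 1 was higher and 1 lower, beside 6.74% and 5.16%. Counts in so short a list cannot be set apart from these shares. The median log2 ratios of the list were -0.08, 0.25 and -0.01. HRK, a BH3-only gene, had 145, 197, 200 and 307 counts in the control, NBT, trametinib and combination libraries, a log2 ratio of 1.02 for the combination against control. BNIP3L (NIX), a receptor for the removal of mitochondria by autophagy, had 1819, 1746, 1049 and 686 counts, a log2 ratio of -1.47. Its relative BNIP3 had 131, 98, 161 and 79 counts and was lower in the combination than in the trametinib library, at -1.07.

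Of 19 genes for mitochondrial channels, released factors, caspases and their inhibitors, 0 were past 2-fold against control in any of the treated libraries, with log2 ratios between -0.84 and 0.69. The shares of all genes tested are those given for the first list. The interval of the ratio excluded 0 for 11 of the 19 under NBT and for 13 each under trametinib and under both drugs, beside 48.1%, 56.4% and 63.2% of the genes tested. In the combination against trametinib 1 was at least 2-fold lower, beside 5.4% of the genes tested. It was ENDOG, a nuclease released from mitochondria, with 697 counts under trametinib and 313 under both (log2 ratio -1.20). CASP9, the initiator caspase of this pathway, had 184, 234, 265 and 236 counts in the control, NBT, trametinib and combination libraries. The caspase inhibitor XIAP had 1008, 1432, 854 and 1495 counts, high in both libraries with NBT.

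Of 22 regulators of the family, 2 were at least 2-fold higher and 1 lower with NBT against control, beside 2.99% and 2.15% of the genes tested. With trametinib 2 were higher and 1 lower, beside 5.84% and 3.07%. With the combination 2 were higher and 2 lower, beside 6.74% and 5.16%. These counts are again too small to set apart from the shares. In each comparison 1 of the genes past 2-fold was TP73, with 33, 7, 86 and 4 counts in the control, NBT, trametinib and combination libraries. The median log2 ratios of the regulators were 0.06, 0.13 and 0.19. DDIT3 (CHOP), a stress factor known to act on BH3-only genes, had 196, 1298, 443 and 2589 counts in the control, NBT, trametinib and combination libraries, a log2 ratio of 3.66 for the combination. TRIB3, a target of ATF4 and CHOP, had 1070, 4499, 1306 and 5426 counts. These values were high in both libraries with NBT, as were those of PMAIP1. With trametinib against control, DDIT3 and TRIB3 were higher (log2 ratios 1.16 and 0.27) and PMAIP1 was lower (-0.45). For the combination against NBT the values were 0.98 and 0.26 beside -0.21. A link between these genes was not tested. MYC had 913, 1297, 170 and 586 counts, lowest with trametinib. E2F1 had 1061, 832, 996 and 341 counts, lowest in the combination library, and JUN had 2598, 3255, 1604 and 4619 counts.

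The genes most like a member were those with the smallest Euclidean distance to it over the log2 ratios of the 3 treated libraries to control, among 10661 other genes that reached 100 counts in 1 or more of the libraries. BCL2L1 was closest to C16orf74 (distance 0.02), MMP14 (0.14) and ELK3 (0.24). MCL1 was closest to ABHD16B (0.08), CRY1 (0.08) and CAPN15 (0.09), and BCL2 to FHOD1 (0.10), ZIC2 (0.10) and PER2 (0.12). PMAIP1 was closest to FAM110C (0.09), DUS4L (0.13) and ZEB1 (0.15), and BBC3 to C14orf28 (0.18), WIPI1 (0.22) and YPEL5 (0.24). The nearest to BMF were WNT10A at 0.47, FGD3 at 0.65 and MATN2 at 1.07. BMF reached 100 counts only in the trametinib library, with 125, and had 16 in the control and 5 under NBT. Its larger distances therefore cannot be set apart from counting error. With 3 shared libraries per gene, this likeness is a description only. BCL2L11, BID, BAX and BAK1 spanned less than 2-fold over the libraries and were not ranked.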

How the data were processed

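RNA of 4 conditions, 1 library each, was sequenced on the BGISEQ-500 platform per the study's methods. The authors deposited, per gene and per RefSeq transcript, estimated counts that are not normalized, TPM values and FPKM values. The submitters' processing notes name Bowtie2 2.2.5, RSEM 1.2.8 and hg38. RSEM divides reads that match several transcripts or genes, so transcript values and the genes with fractional counts are less certain. The labels describe removal of bacterial ribosomal RNA. Columns were assigned to conditions by their abbreviations.

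Here, estimated counts were rounded and scaled to library sums between 18776212 and 19614763, and log2 ratios were computed with 0.5 reads added for 5 comparisons. The 95% intervals of a ratio are exact (Clopper-Pearson), with delta-method intervals from Poisson errors for departures from additivity and for ratios of TPM. Genes tested had at least 10 counts in at least 1 library, and called means past 2-fold. The study's own rule adds a Poisson comparison; in its place an exact binomial comparison with Benjamini-Hochberg adjustment at 0.05, which compares libraries and not conditions, is given as an alternative by counts. Members, lists, naming rules and motifs were chosen with earlier results of these data known, the motifs after the values were seen. All members are named, as are genes of the 3 lists past 2-fold whose higher library holds 100 counts or more. DUSP6 stands as the example of the 8 MEK check genes, which are given as a count. CASP9, XIAP, BAD, BCL2L2, BOK and TP73 were added after their values were seen. The markers CDKN2B and MTAP were added to those listed. Some list genes are not reported here. Alternatives were edgeR TMM and DESeq2 size factors, TPM or FPKM with 0.1 added, 5 added reads, summed transcript counts, a minimum of 1 count, a 1.5-fold limit and the binomial comparison. Ratio and interval steps were tested on simulated data. Python 3.11.15, R 4.3.3, edgeR 4.0.16 and DESeq2 1.42.0 were used. Proteins and other lines were not analysed here.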

Additional observations from a re-analysis of the deposited data

How the results depend on the processing

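No paired analysis was possible because each condition has 1 library. Of 350 recomputed log2 ratios of members, 348 stayed within the counting interval, as did all 70 departures from additivity. A minimum of 1 count cannot change a member's ratio, and summed transcript counts gave the main value for every member. Neither is therefore a check of the ratios, departures or medians of the members, though both are counted here. Medians over the members have no interval of their own, and all 35 stayed between the median of the members' lower bounds and that of their upper bounds. The median for trametinib against control, -0.02, lay so near 0 that it ran from -0.08 with size factors to 0.01 with FPKM. The exceptions among the log2 ratios were BCL2L11 (-0.60) and MCL1 (0.30) with NBT against control on the TPM scale, both in the same direction as before. BBC3 with trametinib against control fell below 2-fold with TMM, size factors, TPM, FPKM and 5 added reads, and passed it on the TPM scale for the combination against NBT. The count of members past 2-fold was 0 for NBT against control with FPKM and with an exact binomial comparison (Benjamini-Hochberg adjusted, at 0.05) on top of 2-fold, which both lost BMF. With 5 added reads it was 2 for trametinib against control, which lost BBC3 and BCL2, and 2 in place of 3 for the combination against control and against NBT, which lost BCL2. With a 1.5-fold limit the count was 3 for NBT, 5 for the combination against control, 4 against trametinib and 5 against NBT, by construction.

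Genes tested past 2-fold numbered 694 for NBT, 1204 for trametinib, 1608 for the combination against control, 1245 for it against trametinib and 963 against NBT. A 1.5-fold limit gave 1915, 2712, 3758, 3096 and 2267, and a minimum of 1 count gave 2153, 2956, 3390, 2897 and 2690, since more genes of few counts entered. For NBT against control the added binomial comparison gave 405, 5 added reads 415 and FPKM 441, and the cause of the last was not tested. With estimated counts in place of TPM, the shares of transcripts with the BH3 stretch rose in each library for BCL2L11 (control 25.8% to 43.0%), BCL2 (trametinib 42.3% to 62.6%) and BAX (control 67.6% to 75.9%). The rest of BCL2, between 40.6% and 57.7% of its TPM, lay in transcripts that could not be matched. No BCL2 transcript was found to lack the stretch. Values of BMF (5 to 125 counts) and BCL2 (59 to 124) are limited by depth, and without replicates no difference can be set against variation between cultures.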
